A study of Mus musculus with 11 samples.

Results

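Notch pathway genes were examined as 10 listed genes across all 27 mouse libraries: the receptors *Notch1*, *Notch2* and *Notch3*, the ligands *Jag1*, *Jag2*, *Dll1* and *Dll4*, and the target or feedback genes *Hes1*, *Hey1* and *Nrarp*. They were matched by symbol, and all 10 are among the 18305 genes of the count table. The libraries came from 3 oviduct tissue samples, 3 samples of ovarian surface epithelium (OSE) tissue, 3 oviductal and 2 OSE organoid lines, 3 Cas9-GFP oviductal organoid lines, 3 TBP clones, 4 tumor-derived organoid lines (T1-mes and T3-mes of mixed type, T2-epi and T4-epi of epithelial type) and 6 TBP tumors. Tissues and the first organoid lines were from wild-type C57BL/6 females of 8 to 12 weeks, with mice pooled for a line. The Cas9-GFP lines were from mice of the B6J.129(B6N) background with the allele tm1(CAG-cas9*,-EGFP)Fezh/J at the locus Gt(ROSA)26Sor, which express Cas9 and EGFP in every cell, and were not edited. TBP clones were single clones of such oviductal organoids, edited with guides against 3 tumor suppressor genes (*Trp53* and *Brca1* among them) and selected with Nutlin-3a, a drug that stops the growth of cells with working p53. The study describes 2 independent clones for a set of edits, so that 2 of the 3 TBP clone libraries may be of the same clone. TBP tumors grew from TBP clones under the skin of immunodeficient NSG mice, so they also hold host stroma and vessels. The mes (mixed epithelial-mesenchymal) and epi (epithelial) lines were grown from such tumors in Nutlin-3a, and T1-mes and T2-epi came from adjacent tumors. The study traces all 4 lines to 1 original TBP clone, so that they do not sample other clones. All organoids grew in a matrix with a medium that contained WNT and estrogen.

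Notch signalling passes between cells that touch. A ligand of the Jagged or Delta-like kind on one cell binds a Notch receptor on its neighbour, proteases of the ADAM family and the gamma-secretase complex then cut the receptor, and the freed intracellular part joins the DNA-binding protein RBPJ and a Mastermind coactivator to switch on target genes. Among the targets are transcriptional repressors of the HES and HEY families and *Nrarp*, whose product limits the signal. In the oviduct, Notch activity keeps progenitors from becoming ciliated cells and favors the secretory fate, while *Foxj1* encodes the factor that drives ciliogenesis. In blood vessels *Dll4*, *Notch4*, *Hey1* and *Heyl* are known for their part in endothelial and mural cells, and *Notch3* is a gene of pericytes and smooth muscle.

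Reads were counted per gene after CEL-Seq2, a method that reads a tag near the 3′ end of each transcript, so levels are compared for 1 gene between libraries and not between genes. The counts ranged from 600579 to 4531767 in 26 libraries and came to 82239 in TBP clone 1. Values are given as CPM, the usual scaling of counts to library size, with the TMM factors of edgeR. A count of 0 allows up to 3 counts, which is 0.670 to 5.21 CPM in the 26 libraries and 34.1 CPM in TBP clone 1, for counting error only. The zeros of that clone therefore carry little information, and so do its low counts, since 1 read there is 11.4 CPM. Oviduct tissue fitted its label by secretory markers (summed level 75597 to 119883 CPM) and ciliated markers (757 to 1226 CPM). OSE tissue held 3374 to 4074 CPM of granulosa and 6014 to 7345 CPM of steroidogenic markers beside 400 to 561 CPM of mesothelial markers, so it contained other ovarian cells. The OSE organoid lines stood apart from each other: secretory markers summed to 770 CPM in line 1 and 3698 CPM in line 2, and mesothelial markers to 2224 and 551 CPM. Several results that rest on these lines are also given without line 2, where only 1 line is left in the group. Nothing in the labels ties most replicates to separate animals, so that p-values measure the spread between these samples.

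Promoters are shown for 2 genes whose levels differed between OSE organoids and OSE tissue, the ligand *Dll4* and the receptor *Notch3*, and for the feedback gene *Nrarp*. RefSeq promoter sequences (GRCm38.p6) were on hand for 8 of the 10 members, not for *Hes1* and *Hey1*. Each sequence holds the 250 bases before the transcription start, 5′ to 3′ on the strand of the gene. Capitals mark matches to the N-box CACNAG, bound by HES factors, on either strand. *Dll4* (plus strand, chr2:119325534-119325783) held 1 match, starting 75 bases before the start. *Notch3* (minus strand, chr17:32166891-32167140) held 2, at 204 and 159 bases, and *Nrarp* (plus strand, chr2:25180508-25180757) held 2, at 179 and 79 bases.
Dll4: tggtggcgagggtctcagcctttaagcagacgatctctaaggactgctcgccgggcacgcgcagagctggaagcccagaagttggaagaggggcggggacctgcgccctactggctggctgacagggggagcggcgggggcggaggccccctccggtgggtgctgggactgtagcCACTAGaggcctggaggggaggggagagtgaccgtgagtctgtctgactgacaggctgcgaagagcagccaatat
Notch3: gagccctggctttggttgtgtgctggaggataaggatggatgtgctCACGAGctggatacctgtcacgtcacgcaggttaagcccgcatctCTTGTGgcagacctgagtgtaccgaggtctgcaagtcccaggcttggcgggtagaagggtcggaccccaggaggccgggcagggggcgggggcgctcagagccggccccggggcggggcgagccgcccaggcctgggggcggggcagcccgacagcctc
Nrarp: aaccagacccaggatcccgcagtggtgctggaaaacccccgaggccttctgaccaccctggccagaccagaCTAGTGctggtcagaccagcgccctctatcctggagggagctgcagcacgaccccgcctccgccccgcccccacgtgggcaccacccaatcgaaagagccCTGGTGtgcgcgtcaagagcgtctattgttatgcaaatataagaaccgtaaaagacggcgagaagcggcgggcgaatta
Of the 9 promoters of the 8 members, 5 held an N-box, against 36.7% of 32851 promoters of this length. The core of the RBPJ site, TGGGAA, was in 0 of the 9 on either strand and in 21.6% of all promoters. A match describes the letters only, and none says only that these letters are not in this window.

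Counts differed widely among the 10 genes. *Hes1* was counted in every library (10 to 1027 reads), as was *Notch3* (3 to 351 reads), while *Notch1*, *Notch2*, *Jag1* and *Nrarp* were each at 0 in 1 library. *Dll4* was at 0 in 4 libraries and *Hey1* in 12. *Jag2* never exceeded 10 reads and *Dll1* never exceeded 9, so neither passed the filter on low counts in any comparison, and both were not tested. Their levels stayed at or under 5.11 CPM (*Jag2*, highest in oviduct tissue 1) and 3.86 CPM (*Dll1*, highest in Tumor 1). The plot of levels in each library shows the other 8 genes.

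**Figure D1:**
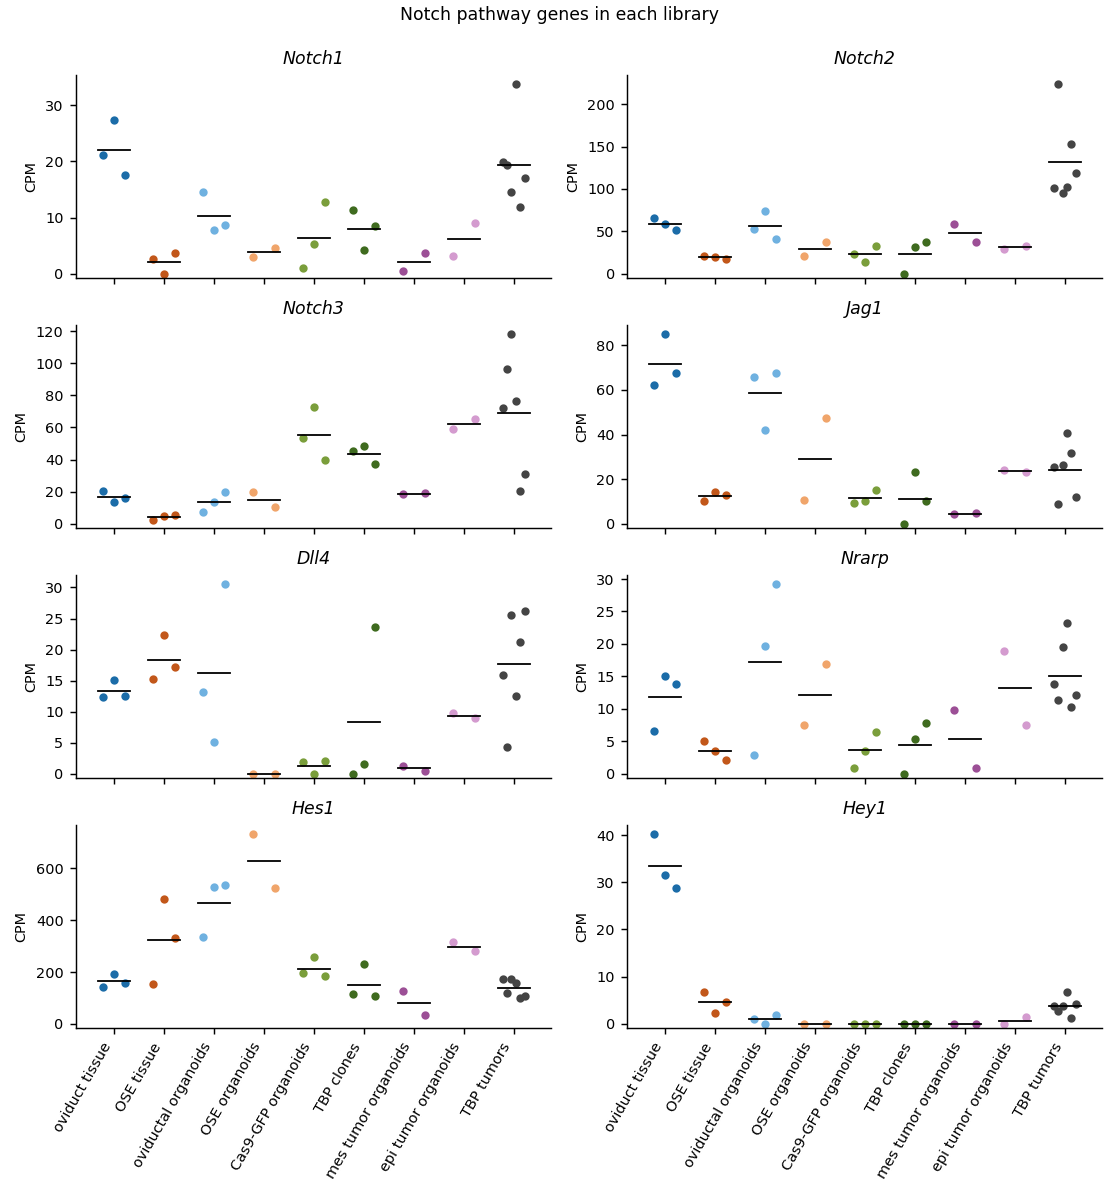
Levels of 8 Notch pathway genes (vertical axes, CPM, each panel on its own linear scale) in the 27 libraries, grouped along the horizontal axis, with 1 point per library and a black bar at the group mean. *Notch2* is highest in the 6 TBP tumors (95.7 to 224 CPM), *Hey1* stands out in oviduct tissue (28.8 to 40.2 CPM), and *Dll4* is at 0 in both OSE organoid lines.

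The order of the group means differed between the receptors. *Notch1* was highest in oviduct tissue (22.0 ± 4.99 CPM, SD, n = 3) and TBP tumors (19.4 ± 7.66 CPM, SD, n = 6) and lowest in OSE tissue (2.07 ± 1.88 CPM, SD, n = 3), and each group overlapped its neighbour in that order. For *Notch2* the tumors came first, with no overlap with the next group, oviduct tissue (58.7 ± 7.19 CPM, SD, n = 3). Oviduct tissue, oviductal organoids and the mes lines overlapped in that order, and below the mes lines, which did not overlap the epi lines, each group again overlapped its neighbour down to OSE tissue (19.5 ± 2.06 CPM, SD, n = 3). *Notch3* fell into 3 steps. Tumors (69.2 ± 37.5 CPM, SD, n = 6), epi lines, Cas9-GFP organoids and TBP clones overlapped in turn, then came the mes lines, oviduct tissue, OSE organoids and oviductal organoids, and last, without overlap, OSE tissue (4.16 ± 1.41 CPM, SD, n = 3).

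Ligands and targets followed other orders. *Jag1*, the main Jagged ligand counted here, was highest in oviduct tissue (71.6 ± 11.9 CPM, SD, n = 3) and oviductal organoids (58.4 ± 14.3 CPM, SD, n = 3) and lowest in the mes lines (4.48 and 4.71 CPM). *Dll4* had like means in OSE tissue, TBP tumors, oviductal organoids and oviduct tissue (13.3 to 18.3 CPM) with overlapping neighbours, and was at 0 in both OSE organoid lines. *Hes1*, the most widely used readout of the pathway, had its highest mean in OSE organoids (734 and 525 CPM) and its lowest in the mes lines (128 and 34.4 CPM). For *Nrarp* the order ran from oviductal organoids (17.3 ± 13.4 CPM, SD, n = 3) to OSE tissue (3.57 ± 1.51 CPM, SD, n = 3), and every group overlapped its neighbour.

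Oviduct and OSE tissue were compared to ask how the 2 possible origins of high-grade serous ovarian cancer differ. All 3 receptors, *Jag1* and *Hey1* were higher in oviduct tissue, *Hes1* was lower, and *Dll4* did not pass the test. Thus 6 of the 7 members tested were called, 5 higher and 1 lower, where 51.2% of all 8787 genes were called. Their median log2 fold change was 1.98, against 0.00 over all genes tested. In bulk samples such as these, fewer cells of a type and less RNA per cell cannot be told apart.

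*Notch1* had 21.2, 27.4 and 17.5 CPM in oviduct tissue 1, 2 and 3 and 2.56, 0 and 3.66 CPM in OSE tissue 1, 2 and 3. Every oviduct sample was above every OSE sample, by 3.06 in log2 fold change (SE, its standard error, 0.46, adjusted p = 5.44e-05). *Notch2* had 65.8, 58.9 and 51.4 CPM in oviduct and 21.3, 19.9 and 17.2 CPM in OSE tissue, again without overlap (log2 fold change 1.61, SE 0.23, adjusted p = 3.04e-05). For *Notch3* the values were 20.5, 13.7 and 16.3 CPM in oviduct and 2.56, 4.69 and 5.22 CPM in OSE tissue. The receptor was higher in all 3 oviduct samples (log2 fold change 1.98, SE 0.37, adjusted p = 0.000410).

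The ligands did not move together. *Jag1* had 62.1, 85.0 and 67.7 CPM in oviduct tissue and 10.2, 14.1 and 13.1 CPM in OSE tissue. Oviduct levels exceeded those of OSE, with a log2 fold change of 2.49 (SE 0.25, adjusted p = 8.72e-07), with no overlap. *Dll4* had 12.4, 15.1 and 12.5 CPM in oviduct and 15.3, 22.3 and 17.2 CPM in OSE tissue. OSE tissue lay slightly above oviduct tissue, but the difference did not pass the test (log2 fold change -0.45, 95% interval -1.09 to 0.19, adjusted p = 0.228).

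*Hey1*, a repressor induced by Notch in vessel walls and other tissues, had 40.2, 31.5 and 28.8 CPM in oviduct tissue and 6.81, 2.35 and 4.70 CPM in OSE tissue. All oviduct samples were higher (log2 fold change 2.79, SE 0.35, adjusted p = 8.18e-06). *Hes1* went the other way, with 142, 192 and 158 CPM in oviduct and 156, 481 and 330 CPM in OSE tissue. The groups overlapped, since OSE tissue 1 lay within the oviduct range, and the log2 fold change was -0.99 (SE 0.30, adjusted p = 0.0113). Without oviduct tissue 1 or OSE tissue 2 in turn, the adjusted p of *Hes1* rose to as much as 0.0758. The fit of all 27 libraries did not call *Hes1* either (adjusted p = 0.0893). *Nrarp* had 6.58, 15.1 and 13.8 CPM against 5.11, 3.52 and 2.09 CPM, without overlap, but did not pass the filter on low counts. *Heyl*, a paralog of *Hey1*, was lower in oviduct (50.4, 35.6 and 28.8 CPM) than in OSE tissue (125, 122 and 114 CPM), so that *Hey1* and *Heyl* differed in opposite directions (log2 fold change -1.61, SE 0.20, adjusted p = 9.83e-06).

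Markers of other cells moved between the tissues as well. The 8 pericyte and smooth muscle markers summed to 5598 to 6859 CPM in oviduct and 525 to 755 CPM in OSE tissue, and all 6 of those tested were higher in oviduct. Epithelial markers were also higher there (1491 to 1889 against 336 to 402 CPM), while the 10 endothelial markers summed to 174 to 195 and 114 to 156 CPM, with 1 of 6 tested called. *Foxj1* had 181, 221 and 100.3 CPM in oviduct tissue and 0, 0 and 1.04 CPM in OSE tissue. Granulosa markers went the other way, with 3374 to 4074 CPM in OSE tissue and at most 95.2 CPM in oviduct tissue. Steroidogenic markers did so too, with 6014 to 7345 CPM in OSE tissue and at most 222 CPM in oviduct tissue. Of the markers tested, 4 of 4 granulosa and 3 of 3 steroidogenic markers were lower in oviduct. The part of these cell types in the differences of the members was not tested.

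**Figure D2:**
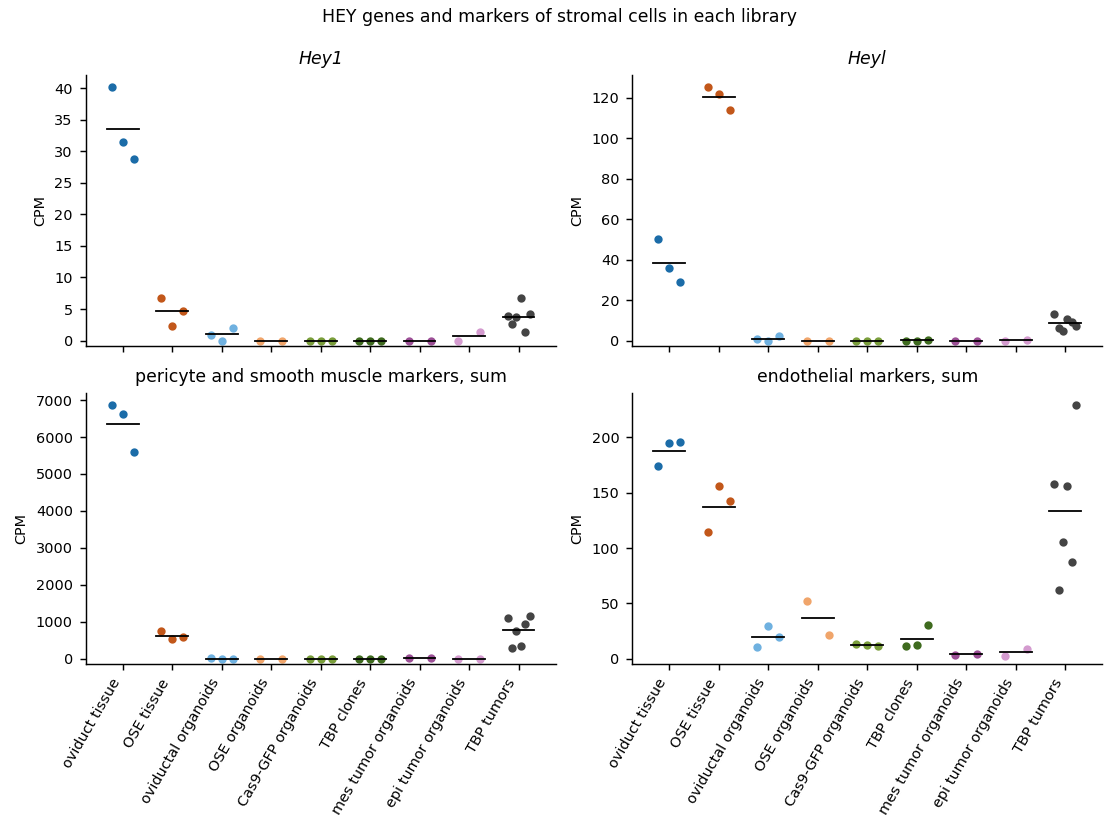
*Hey1* and *Heyl* (upper panels) and the summed levels of 8 pericyte and smooth muscle markers and 10 endothelial markers (lower panels), all in CPM on linear axes, with 1 point per library and a black bar at the group mean. *Hey1* is at or under 1.99 CPM in every organoid line, where the pericyte and smooth muscle markers sum to at most 17.0 CPM. Between the tissues *Heyl* goes against these markers. Its mean is 120 CPM in OSE and 38.3 CPM in oviduct tissue, where the markers sum to 525 to 755 and 5598 to 6859 CPM.

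Culture was then compared with the tissue of origin. Between oviductal organoids and oviduct tissue, *Hes1* rose, *Hey1* and *Notch1* fell, and *Notch2*, *Notch3*, *Jag1*, *Dll4* and *Nrarp* did not pass the test. That is 3 of 8 members called, against 42.9% of all 9477 genes tested, with medians of -0.17 for the members and -0.02 for all genes (log2 fold change). These organoids and OSE tissue are both compared with the same 3 oviduct tissue samples. RNA was extracted with different reagents from tissues and from organoids, so that the extraction and the culture cannot be told apart.

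*Hey1* was the member that differed most. It had 0.944, 0 and 1.99 CPM in the 3 oviductal organoid lines, from 5 reads in all, against 28.8 to 40.2 CPM and 101 reads in the tissue. The ratio of the reads, per scaled library size, was 33.4-fold lower in organoids (95% counting interval 13.9 to 105; adjusted p = 1.82e-05 for the fitted difference). *Hes1* had 336, 527 and 537 CPM in the organoids, all above the 142 to 192 CPM of the tissue, and rose by a log2 fold change of 1.53 (SE 0.22, adjusted p = 0.000142). Thus 2 targets of the same pathway moved in opposite directions.

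The receptors and ligands changed less. *Notch1* had 14.6, 7.72 and 8.63 CPM in the organoids, below the 17.5 to 27.4 CPM of the tissue (log2 fold change -1.02, SE 0.36, adjusted p = 0.0384). That call did not hold by DESeq2 (adjusted p = 0.0777) or in the fit of all 27 libraries (adjusted p = 0.219). It was also lost on leaving out any of 5 of the 6 libraries, all but oviductal organoids 1 (adjusted p up to 0.156). *Notch2* had 52.8, 73.7 and 41.2 CPM in the organoids, on both sides of the tissue values, and the 95% interval of its log2 fold change ran from -0.62 to 0.46. *Jag1* had 65.6, 42.0 and 67.7 CPM against 62.1 to 85.0 CPM (95% interval -0.77 to 0.25, adjusted p = 0.403). *Notch3* had 7.08, 13.7 and 19.9 CPM in the organoids, with 1 line below the tissue range and the others within it. *Dll4* had 13.2, 5.14 and 30.5 CPM, on both sides of the tissue range. *Nrarp* was as uneven, with 2.83, 19.7 and 29.2 CPM (adjusted p = 0.525). *Foxj1* fell from 100.3 to 221 CPM in tissue to 53.3, 63.4 and 47.1 CPM in the organoids (log2 fold change -1.61, adjusted p = 0.000418), and pericyte and smooth muscle markers from 5598 to 6859 CPM to 0.664 to 6.61 CPM. Of these 8 markers, *Rgs5*, *Pdgfrb*, *Cspg4*, *Des* and *Cnn1* had no read in any oviductal organoid line.

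OSE organoids differed from OSE tissue in a ligand. *Dll4*, which encodes a Delta-like ligand best known from vessel sprouting, had 15.3, 22.3 and 17.2 CPM in OSE tissue (18 to 33 reads a sample) and no read in OSE organoids 1 or 2. It was at least 9.63-fold lower in the organoids, against a floor of 3 reads per library (adjusted p = 0.00247). The receptor *Notch3* rose, with 19.6 and 10.2 CPM in the organoids and 2.56 to 5.22 CPM in the tissue (log2 fold change 1.80, SE 0.52, adjusted p = 0.0362). These were the 2 members called of 6 tested, against 33.1% of all 10232 genes. *Hey1* was not tested here: it had 19 reads in OSE tissue and none in the organoids, at least 2.43-fold lower.

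*Nrarp* came next, with 7.55 and 16.9 CPM in OSE organoids against 2.09 to 5.11 CPM in OSE tissue, without overlap, but its adjusted p was 0.0506 (log2 fold change 1.86, SE 0.59). *Hes1* had 734 and 525 CPM against 156, 481 and 330 CPM, and both lines lay above the tissue (log2 fold change 0.98, SE 0.46, adjusted p = 0.144). *Jag1* split the lines: OSE organoids 1, at 10.6 CPM, was within the tissue range, and OSE organoids 2, at 47.6 CPM, far above it. Its log2 fold change was 1.28 with both lines (adjusted p = 0.153) and -0.21 without line 2. *Notch2* split them as well, with 20.4 CPM in line 1 and 37.8 CPM in line 2, against 17.2 to 21.3 CPM in OSE tissue.

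Without OSE organoids 2, the log2 fold changes were 2.19 for *Notch3*, 1.21 for *Hes1* and 0.10 for *Notch2*. *Dll4* had no read in the line kept. With 1 line left in the group, that line is assumed to vary like the tissue samples, so calls of these fits are not given. Without line 1 instead, the log2 fold changes were 1.98 for *Jag1*, 2.35 for *Nrarp*, 1.03 for *Notch2*, 0.76 for *Hes1* and 1.29 for *Notch3*. With both lines, the *Notch3* call did not hold by DESeq2 (adjusted p = 0.0621). Leaving out any 1 OSE tissue sample also took it (adjusted p up to 0.118). Endothelial markers summed to 114 to 156 CPM in OSE tissue and to 52.1 and 21.5 CPM in the organoids, where *Pecam1*, *Cdh5*, *Kdr*, *Tek*, *Tie1*, *Emcn* and *Cldn5* had no read. Of the markers tested, 4 of 6 endothelial, 6 of 6 pericyte and smooth muscle and 6 of 6 fibroblast markers were lower in OSE organoids. So were 4 of 4 granulosa and 3 of 3 steroidogenic markers, while 4 of 4 epithelial markers were higher. Oviductal organoids, with 5.14 to 30.5 CPM of *Dll4*, had endothelial sums of 10.4 to 29.1 CPM. The part of any of these cell types in the difference of *Dll4* was not tested.

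**Figure D3:**
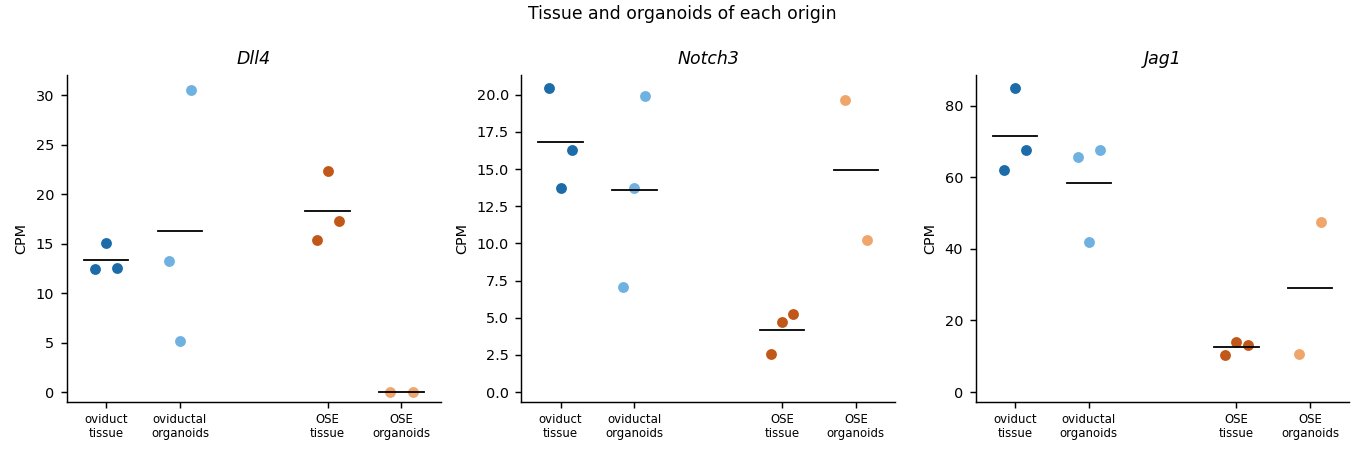
*Dll4*, *Notch3* and *Jag1* (vertical axes, CPM, linear) in tissue and organoids of oviduct (blue) and OSE (orange), with 1 point per library and a black bar at the group mean. *Dll4* is at 0 in both OSE organoid lines and between 5.14 and 30.5 CPM in the oviductal lines, while the OSE organoid lines differ from each other in *Jag1* (10.6 and 47.6 CPM).

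Whether culture went with a different change in the 2 origins was tested by an interaction term over the 11 libraries. Of 8 members, 1 was called, against 11.7% of all 11458 genes. It was *Dll4*, with 5.14 to 30.5 CPM in oviductal organoids beside 12.4 to 15.1 CPM in their tissue, and 0 beside 15.3 to 22.3 CPM on the OSE side (adjusted p = 0.00475). *Notch3* and *Jag1* had negative differences of differences that did not pass (-2.02, adjusted p = 0.0794, and -1.46, adjusted p = 0.160). Without OSE organoids 2, the difference of *Notch3* was -2.44. *Jag1* depended on the line kept, with -2.12 without line 1 and 0.070 without line 2. The Cas9-GFP oviductal lines, which were not in this test, had 1.88, 0 and 2.14 CPM of *Dll4*. A low level of *Dll4* in culture was therefore not particular to the OSE lines.

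Oviductal and OSE organoids were also compared directly, with 3 and 2 lines. edgeR called 0 of 7 members and 0.0864% of 9257 genes. At an unadjusted p under 0.05 there was 1 member, for which no share of all genes is given. DESeq2 called 1 of 7 members and 2.85% of the genes. Both statements concern *Dll4*, with 13.2, 5.14 and 30.5 CPM in the oviductal lines and no read in the OSE lines, a bound of at least 8.58-fold higher (adjusted p = 0.193 by edgeR and 0.00384 by DESeq2). All 3 C57BL/6 oviductal lines were higher, but they spread over a wide range. The Cas9-GFP oviductal lines, not in this test, had 0 to 2.14 CPM of *Dll4*. *Notch1* (14.6, 7.72 and 8.63 against 3.02 and 4.60 CPM) and *Notch2* (52.8, 73.7 and 41.2 against 20.4 and 37.8 CPM) were higher in every oviductal line, without passing the test (adjusted p = 0.451 and 0.458). The groups overlapped for *Notch3*, *Jag1*, *Hes1* and *Nrarp*. Without OSE organoids 2, the log2 fold change of *Jag1* was 2.48. *Foxj1* had 0.755 and 5.63 CPM in the OSE lines, below the 47.1 to 63.4 CPM of the oviductal lines (adjusted p = 0.107).

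Oviductal organoids of the 2 strains carry no mutation by design, so their comparison shows how far unedited lines can differ. Each of the 4 members tested was called: *Jag1*, *Notch2* and *Hes1* were lower and *Notch3* higher in the Cas9-GFP lines. Of all 8323 genes, 26.3% were called. The members passed the filter because of their levels in these 6 libraries, and the other 6 genes were not tested. Strain, transgene and the separate derivation of the lines cannot be told apart. The C57BL/6 lines are the same 3 lines as above.

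*Jag1* had 9.42, 10.4 and 15.0 CPM in Cas9-GFP lines 1, 2 and 3 and 65.6, 42.0 and 67.7 CPM in the C57BL/6 lines. It was lower in every Cas9-GFP line, by a log2 fold change of -2.31 (SE 0.32, adjusted p = 0.000371). *Notch3* had 53.7, 73.0 and 39.6 CPM in the Cas9-GFP lines against 7.08, 13.7 and 19.9 CPM, higher without overlap (log2 fold change 2.06, SE 0.38, adjusted p = 0.00219). *Notch2* had 23.6, 13.9 and 32.1 CPM against 52.8, 73.7 and 41.2 CPM (log2 fold change -1.19, SE 0.33, adjusted p = 0.0184). This last call was lost without Cas9-GFP line 1 or 2 or oviductal organoids 2 (adjusted p up to 0.0672). *Hes1* had 195, 259 and 185 CPM against 336, 527 and 537 CPM, again without overlap (log2 fold change -1.12, SE 0.22, adjusted p = 0.00325). The fit of all 27 libraries did not call *Hes1* (adjusted p = 0.0862) or *Notch2* (adjusted p = 0.0604).

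*Dll4* had 4 reads in the Cas9-GFP lines together and 80 in the C57BL/6 lines, a 10.7-fold lower ratio (95% counting interval 4.03 to 40.3), and was not tested because the filter left it out. *Nrarp* had 0.942, 3.48 and 6.43 CPM against 2.83, 19.7 and 29.2 CPM, with overlap. Ciliated markers summed to 8.69 to 56.8 CPM in the Cas9-GFP lines and to 88.2 to 165 CPM in the C57BL/6 lines, and secretory markers to 551 to 679 against 15220 to 23168 CPM, although of 3 secretory markers tested 1 was higher and 1 lower. Epithelial markers summed to 2675 to 2905 against 4119 to 5376 CPM, with 3 of 4 lower. *Foxj1* had 15.1, 1.74 and 34.3 CPM against 53.3, 63.4 and 47.1 CPM, so that it was lower together with *Jag1*, *Notch2* and *Hes1* (log2 fold change -1.55, adjusted p = 0.0309). The part of the cell types in these differences was not tested.

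TBP clones were compared with the Cas9-GFP lines to see what went with the edits. None of the 4 members tested was called: edgeR had 0 of 4 at an adjusted p under 0.05, 0 of 4 at an unadjusted p under 0.05, and DESeq2 called 0 of 4. Of all 7708 genes, edgeR called 0.817%, and the shares for the other counts are not given. *Notch3* kept the higher level of the Cas9-GFP lines, with 45.4 (from 4 reads), 48.7 and 37.1 CPM in TBP clones 1, 2 and 3. *Hes1* had 114, 233 and 109 CPM against 185 to 259 CPM, and its log2 fold change of -0.42 had a 95% interval of -1.21 to 0.36. *Jag1* had 0, 23.0 and 10.3 CPM and *Notch2* 0, 32.1 and 37.1 CPM, where the zeros are those of the shallow clone 1. Intervals of -0.88 to 1.57 for *Jag1*, -0.71 to 1.46 for *Notch2* and -1.15 to 0.47 for *Notch3* are wide on the log2 scale.

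Among the clones themselves *Dll4* was uneven. It had 106 reads (23.7 CPM) in TBP clone 3, 3 reads (1.61 CPM) in clone 2 and none in clone 1, whose depth allows up to 34.1 CPM. Clones 2 and 3 therefore differed in *Dll4* by far more than in *Notch2* (32.1 and 37.1 CPM) or *Notch3* (48.7 and 37.1 CPM). Without TBP clone 1, no member was called either.

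Tumors were set against the sequenced TBP clones, without a record of which clone gave which tumor, against normal oviduct tissue, and against the organoids grown from such tumors. These 3 comparisons share the 6 TBP tumors. *Notch2* was called higher in the tumors in each. The lowest, median and highest of its tumor values were 95.7, 110 and 224 CPM, in Tumors 3 and 2 at the ends. TBP clones had 0, 32.1 and 37.1 CPM, oviduct tissue 51.4 to 65.8 CPM, and the 4 tumor-derived lines 29.6 to 59.2 CPM, so that no tumor overlapped any of them. The log2 fold change was 2.10 against clones (SE 0.48, adjusted p = 0.00746), 1.15 against oviduct tissue (SE 0.29, adjusted p = 0.00941) and 1.70 against tumor organoids (SE 0.30, adjusted p = 0.00242).

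*Notch1* had a low of 11.9, a median of 18.2 and a high of 33.8 CPM in the tumors. Clones lay below, at 11.4 (1 read in TBP clone 1), 4.28 and 8.48 CPM (log2 fold change 1.42, SE 0.47, adjusted p = 0.0399), and so did the 4 tumor-derived lines, at 0.448 to 9.02 CPM (2.16, SE 0.58, adjusted p = 0.0191). The first of these calls was lost on leaving out any of Tumors 1, 2, 4 and 6 or of TBP clones 2 and 3 (adjusted p up to 0.194), and the second without T2-epi (adjusted p = 0.0544). The first was also lost without the filter on low counts (adjusted p = 0.0512) and in the fit of all 27 libraries (adjusted p = 0.0640). Tumors and oviduct tissue overlapped (95% interval of the log2 fold change -0.96 to 0.53). *Notch3* ranged among the tumors from 20.6 in Tumor 5 to 118 CPM in Tumor 3, with a median of 74.2 CPM. Every tumor exceeded the oviduct tissue samples, although Tumor 5 only just (log2 fold change 2.01, SE 0.57, adjusted p = 0.0154), while clones and tumor organoids overlapped the tumors. That call was lost without oviduct tissue 2 or 3 (adjusted p up to 0.0650).

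*Jag1* ranged from 8.77 to 40.6 CPM in the tumors (median 25.8 CPM), all below oviduct tissue at 62.1 to 85.0 CPM. The log2 fold change was -1.57 (SE 0.39, adjusted p = 0.00889). *Dll4* ranged from 4.39 to 26.2 CPM in the tumors (median 18.6 CPM) and overlapped the tissue, the clones and the tumor organoids. Against the clones its result rests on TBP clone 3: without that clone the log2 fold change was 3.49 (adjusted p = 0.0318) and with all clones 0.55 (adjusted p = 0.621). *Dll1*, another Delta-like ligand, had 25 reads over the 6 tumors, 2 over the 3 clones and 3 over the 4 tumor-derived lines, and was not tested. Its ratio of reads was 6.88-fold higher than in clones (95% counting interval 1.71 to 59.9).

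The target genes differed from each other in the tumors. *Hes1* ranged from 101 to 174 CPM (median 139 CPM) and overlapped all 3 groups, with a 95% interval of -0.76 to 0.26 against oviduct tissue. *Hey1* ranged from 1.29 to 6.76 CPM (median 3.78 CPM), below the 28.8 to 40.2 CPM of oviduct tissue (log2 fold change -3.22, SE 0.39, adjusted p = 0.000144), and had no read in the TBP clones. *Nrarp*, from 10.3 to 23.2 CPM (median 13.0 CPM), lay above the 0, 5.35 and 7.81 CPM of the clones without passing the test (log2 fold change 1.21, SE 0.47, adjusted p = 0.0718).

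In counts, 2 of 7 members were called against the clones, 4 of 8 against oviduct tissue and 2 of 7 against the tumor organoids. The corresponding shares of all genes tested were 31.8%, 46.1% and 27.4%, so that the share of members called was near that of genes at large in each comparison. The tumors held fibroblast markers at 9642 to 58150 CPM and myeloid markers at 253 to 784 CPM, against 0.447 to 22.7 and 20.8 to 38.5 CPM in the clones. Endothelial markers summed to 62.3 to 229 CPM in the tumors and 11.4 to 30.4 CPM in the clones. Tumor 4 had the most fibroblast signal and the lowest epithelial sum (161 CPM), and was the shallowest of the 6 tumors (936348 counts). It had the highest *Notch1*, *Jag1* and *Nrarp*, and the highest *Jag2* and *Hey1* from 3 and 7 reads. It was not highest in *Notch2*, *Notch3*, *Dll1*, *Dll4* or *Hes1*. Against oviduct tissue, pericyte and smooth muscle markers were lower in the tumors (301 to 1162 against 5598 to 6859 CPM, 5 of 8 called lower and 1 higher), as were ciliated (18.3 to 71.6 against 757 to 1226 CPM, 6 of 6 lower) and secretory markers (4 of 4 lower). The part of host cells in the tumor levels was not tested.

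**Figure D4:**
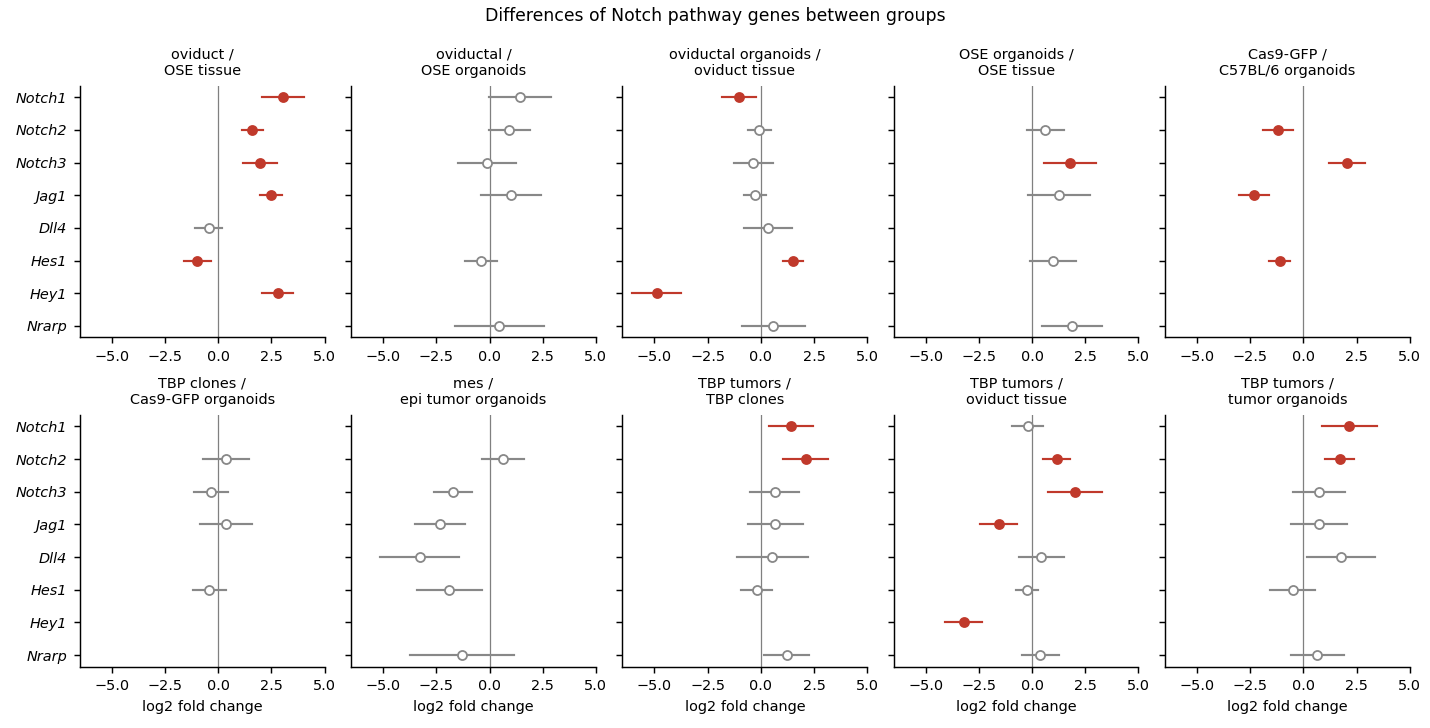
Log2 fold changes (points, first group over second) with 95% intervals (lines) of Notch pathway genes in 10 comparisons, filled red where the adjusted p was under 0.05 and open where it was not. Genes that were not tested, or that had 3 reads or fewer in one group, are left blank, which includes *Dll4* in both comparisons with OSE organoids. *Jag1* is higher in oviduct than OSE tissue (2.49) and lower in Cas9-GFP than C57BL/6 organoids (-2.31).

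The tumor-derived lines were compared by the morphology of the tumor they came from. edgeR called 0 of 6 members, against 1.13% of 9775 genes. Of the 6, 4 had an unadjusted p under 0.05, all lower in mes lines. The share of all genes at that unadjusted threshold is not given, so this count has nothing to be compared with. DESeq2 called 2 of the 6, *Jag1* and *Notch3* (adjusted p = 0.0361 and 0.0304), against 5.46% of the genes. With 2 lines a group, edgeR's test has few degrees of freedom.

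*Jag1* had 4.48 CPM in T1-mes and 4.71 CPM in T3-mes, against 24.1 CPM in T2-epi and 23.3 CPM in T4-epi. Both mes lines were lower, and the lines of a kind nearly coincided (log2 fold change -2.34, SE 0.48, adjusted p = 0.0933). *Notch3* was as even within a kind, with 18.4 and 19.3 CPM in the mes and 58.8 and 65.5 CPM in the epi lines (log2 fold change -1.71, SE 0.37, adjusted p = 0.108). *Dll4* had 3 and 1 reads in the mes lines and 21 and 19 in the epi lines, a 10.2-fold lower ratio (95% counting interval 3.69 to 39.2, adjusted p = 0.123 for the fitted difference).

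*Hes1* had 128 CPM in T1-mes and 34.4 CPM in T3-mes, against 317 CPM in T2-epi and 280.4 CPM in T4-epi. It was lower in both mes lines, which differed from each other (log2 fold change -1.88, SE 0.62, adjusted p = 0.258). *Nrarp* had 9.87 and 0.943 CPM against 19.0 and 7.59 CPM, with overlap, and *Notch2* went the other way, with 59.2 and 37.2 CPM in the mes and 29.6 and 33.2 CPM in the epi lines (adjusted p = 0.560). Leaving out T1-mes, the line with the higher *Hes1* of its kind, the log2 fold changes were -3.12 for *Hes1*, -2.32 for *Jag1* and -1.69 for *Notch3*. T3-mes is then assumed to vary like the epi lines. Epithelial markers summed to 2486 CPM in T1-mes, 204 CPM in T3-mes and 2770 and 2964 CPM in the epi lines, and fibroblast markers to 3072 and 7319 against 30.6 and 99.2 CPM. Whether a smaller share of epithelial cells goes with the lower *Hes1* and *Jag1* was not tested.

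The rest of the pathway was followed in a list of 40 genes: further receptors, ligands and targets, RBPJ and its cofactors, the proteases and gamma-secretase subunits, the enzymes that modify Notch sugars, and regulators of turnover. Between the tissues 6 were higher and 5 lower of 26 tested, beside 51.2% of all genes called, with a median log2 fold change of -0.18. Largest were *Heyl* (given above), the coactivator *Maml2* (28.9 against 10.8 CPM, log2 fold change 1.32), and the ubiquitin ligase genes *Itch* (26.4 against 11.2 CPM, 1.27) and *Dtx4* (39.1 against 15.9 CPM, 1.27), all 3 higher in oviduct. Between oviductal organoids and their tissue 6 rose and 7 fell of 28 tested, beside 42.9% of all genes called. *Heyl* fell from 38.3 to 0.979 CPM and *Lfng*, a glycosyltransferase that tunes which ligand a receptor answers to, from 12.0 to 1.51 CPM (log2 fold change -2.82). *Dtx2* fell from 18.1 to 5.54 CPM (-1.70) and *Furin*, whose protease matures Notch receptors, rose from 246 to 726 CPM (1.57).

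In OSE organoids 5 of 30 rose and 4 fell against OSE tissue, beside 33.1% of all genes called. *Heyl*, at 114 to 125 CPM in the tissue, had no read in either line, at least 63.4-fold lower (adjusted p = 0.000351), and *Hey2* had 1 read against 26, a 21.6-fold lower ratio (95% counting interval 3.56 to 887). *Dtx2* fell (log2 fold change -1.85) and *Furin* rose (1.83), each with the sign it had in the oviductal lines. In the interaction test 2 of 34 genes of the list were called, beside 11.7% of all genes: *Maml2* (-2.15, adjusted p = 0.0195) and *Heyl* (adjusted p = 0.0313). The direct comparison of organoids called 0 of 26, beside 0.0864% of all genes. Of the 26, 1 had an unadjusted p under 0.05, for which no share of all genes is given. Without OSE line 2 the log2 fold changes of *Itch* and *Furin*, named after their values were seen, were 2.92 and 1.53.

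Between the unedited oviductal lines of the 2 strains, 4 genes were higher and 2 lower of 24 in Cas9-GFP organoids, beside 26.3% of all genes called. *Rbpj*, the transcription factor at the end of the pathway, was higher (70.9 ± 6.44 against 35.9 ± 6.14 CPM, SD, n = 3 each, adjusted p = 0.00776), as were *Dtx3* (log2 fold change 1.72) and *Poglut1*, an enzyme that glycosylates Notch (1.35). The histone acetyltransferase gene *Kat2b* was lower (-0.99). TBP clones differed from the Cas9-GFP lines in 0 of 23, beside 0.817% of all genes. Of the 23, 4 had an unadjusted p under 0.05 and 0 were called by DESeq2. The share of all genes at either threshold is not given, so these counts have nothing to be compared with.

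In the tumors, 7 of 33 were higher and 3 lower against clones, 7 and 5 of 33 against oviduct tissue, and 7 and 3 of 32 against tumor organoids, beside the 31.8%, 46.1% and 27.4% of all genes given above. *Heyl* had 1 read in the 3 clones and 96 in the tumors (ratio 52.8, 95% counting interval 9.25 to 2107), yet lay below oviduct tissue (log2 fold change -2.19, adjusted p = 0.000464). *Lfng* rose from 0.863 CPM in clones to 16.2 CPM in tumors (3.80, adjusted p = 0.00122) and *Neurl1a*, a ubiquitin ligase gene, from 0.655 to 8.58 CPM (3.05). *Mib2*, which encodes a ligase for Notch ligands, fell from 31.8 to 4.70 CPM (-2.86, adjusted p = 0.000183). Against oviduct tissue, *Rbpj* (161 against 46.6 CPM, log2 fold change 1.78) and the gamma-secretase gene *Ncstn* (124 against 36.4 CPM, 1.77) were higher. Against tumor organoids, *Heyl*, *Lfng* (3.72) and the endothelial receptor *Notch4* (2.81) were higher and *Mib2* (-2.52) lower. Between mes and epi lines 0 of 29 were called by edgeR, beside 1.13% of all genes. Of the 29, 3 had an unadjusted p under 0.05, for which no share of all genes is given. DESeq2 called 1, beside 5.46% of all genes: *Numbl* (log2 fold change 3.00, adjusted p = 0.0470), named here after its value was seen.

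**Figure D5:**
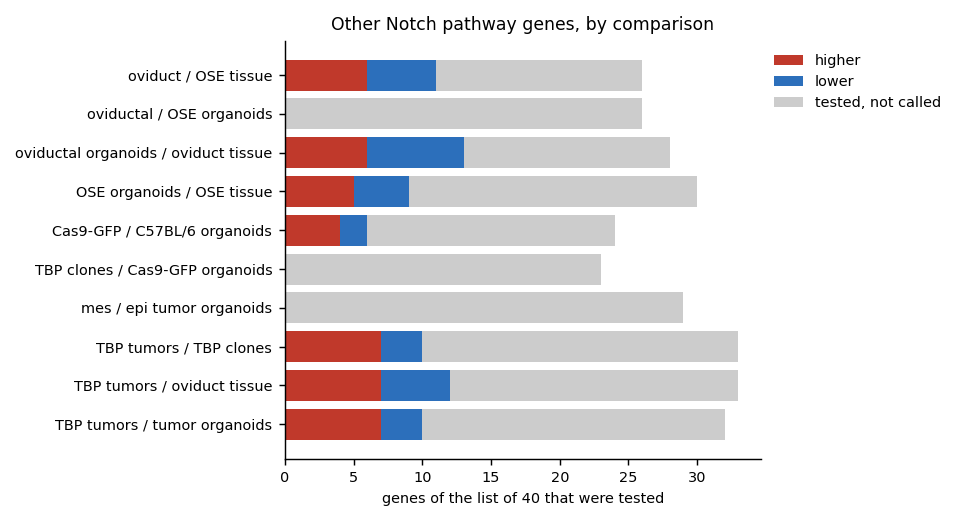
Number of the 40 other Notch pathway genes (horizontal axis) that were called higher (red), called lower (blue) or tested and not called (grey) in each of the 10 comparisons (vertical axis, first group over second). The list has 0 calls between oviductal and OSE organoids, between TBP clones and Cas9-GFP organoids and between mes and epi lines. It has 13 of 28 between oviductal organoids and oviduct tissue, where 42.9% of all genes tested were called.

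Other genes with like patterns over the 27 libraries were named by Pearson's r of log2 CPM among 12810 genes, as a description, since the libraries share groups and depth. *Hey1* was followed most closely by *Col8a2*, *Actg2* and *Aoc3* (r = 0.95, 0.95 and 0.94), of which *Actg2* encodes a smooth muscle actin. *Notch2* was followed by *Trio*, *Ube2g2* and *Ptgfrn* (0.95, 0.94 and 0.92), which fell to 0.90, 0.88 and 0.83 without the shallow TBP clone 1. *Jag1* was nearest to *Il17rd*, *Ddr1* and *Rundc1* (0.89, 0.86 and 0.83, and 0.85, 0.79 and 0.72 without that clone) and *Notch3* to *Ttc7*, *Rab1* and *Fgfr1op2* (0.86, 0.83 and 0.83). For *Hes1* these were *Trim25*, *Fbxw9* and *0610012G03Rik* (0.83, 0.80 and 0.79), and for *Notch1* *Hist2h3c1*, *Rabl2* and *Gtl3* (0.79, 0.78 and 0.78). *Nrarp* was nearest to *Lyn*, *Tyw3* and *Ube2z* (0.76, 0.76 and 0.75, and 0.69, 0.69 and 0.66 without the clone) and *Dll4* to *Pik3ip1*, *Egfl7* and *Dlgap1* (0.75, 0.74 and 0.72), *Egfl7* being a gene of endothelial cells. Among the members themselves the highest r were those of *Nrarp* with *Notch2* (0.68) and with *Jag1* (0.66). *Hes1* had an r of 0.28 with *Nrarp* and -0.15 with *Hey1*, so that the 3 target genes did not rise and fall together.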

How the data were processed

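The authors sequenced RNA by CEL-Seq2, aligned the reads to GRCm38 with BWA, kept uniquely mapped reads on the right strand and deposited the raw counts of reads for each gene, without collapsing by molecular identifier. The submitters' processing notes name DESeq2 1.18.0. From the counts, 1 spike-in entry (1 count) was left out, leaving 18305 genes. Groups were compared with edgeR 4.0.16 (R 4.3.3; quasi-likelihood test, TMM, filterByExpr on the libraries compared), p-values were adjusted by Benjamini-Hochberg over all genes tested, and genes with an adjusted p under 0.05 were called. CPM used TMM factors of a fit of all 27 libraries. Alternatives were DESeq2 1.42.0, RLE size factors, no filter, a fit of all 27 libraries, each library left out, and, for mes against epi lines, a replicate block that holds both lines of 1 GEO sample (T1-mes and T2-epi, or the other two). Only T1-mes and T2-epi are known to be adjacent tumors, and 2 pairs cannot test the pairing. Replicates were checked: over 33 pairs the lowest chi-square per gene was 2.53, above counting error. The tests were tried on simulated counts. The members, the 40 pathway genes and the marker lists were chosen with earlier results of these data known. Named genes were the members, up to 4 called pathway genes of largest fold change per comparison, the 3 genes nearest each member by r, and *Foxj1*. Several members overlap other annotated genes in GENCODE vM21; counting by strand separates those on the opposite strand. Figures used matplotlib 3.10.9 in Python 3.11.15. Small edits in coding exons need not change a 3′ tag count, so the counts do not check the edits. A result that the rule for named genes picked is not reported here.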

Additional observations from a re-analysis of the deposited data

Results flagged for a closer look

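*Notch1* in the TBP tumors had 1 tumor far from the others: Tumor 4, at 33.8 CPM, against 11.9 to 19.8 CPM in the other 5 tumors. Such a gap is expected by chance in about 1 of 20 groups, and 10 members were looked at in this group. *Dll4* differed between origins in its change with culture (adjusted p = 0.00475, edgeR interaction term): it was at 0 in both OSE organoid lines and at 15.3 to 22.3 CPM in OSE tissue, and it overlapped between oviductal organoids and oviduct tissue.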

How the results depend on the processing

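Counts of called members moved by more than 1.5 times in 5 comparisons. Between oviductal and OSE organoids 0 became 1 by DESeq2, without the filter and in the fit of all 27 libraries. For OSE organoids against OSE tissue, 2 became 1 by DESeq2. For clones against Cas9-GFP lines, 0 became 1 without the filter. Between mes and epi lines, 0 became 2 by DESeq2 and in the fit of all libraries, and for tumors against tumor organoids 2 became 6 in that fit. Of the other pathway genes, the fit of all libraries called 4 instead of 11 between the tissues, 2 instead of 6 between the strains and 1 instead of 0 between mes and epi lines. DESeq2 also called 1 there, and 1 was called without the filter for the clones. The pairing of the lines of 1 GEO sample as a replicate block called 0 members and changed no call. Except for DESeq2 between oviductal and OSE organoids and between mes and epi lines, the share of all genes called under these settings is not given. The counts under these settings are therefore not read as results about the genes.

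Leaving out 1 library at a time, members called ranged from 6 to 7 (tissues), 0 to 2 (organoids), 2 to 4 (oviductal organoids against tissue), 1 to 6 (OSE organoids against tissue), 4 to 5 (strains), 0 to 3 (mes against epi), 1 to 2 (tumors against clones), 3 to 4 (tumors against oviduct tissue), 1 to 2 (tumors against tumor organoids) and 1 to 2 (interaction). Other pathway genes ranged from 10 to 13, 0 to 2, 8 to 13, 3 to 17, 4 to 6, 0 to 1, 8 to 12, 7 to 14 and 9 to 13 in the first 9 of these comparisons, and from 0 to 1 for the clones. The sign turned for genes that were not called. Between organoids *Notch3* ran from -0.54 to 0.39 and *Nrarp* from -0.19 to 1.15. Against oviduct tissue *Notch2* ran from -0.30 to 0.11, *Notch3* from -0.76 to 0.015, *Dll4* from -0.42 to 0.72 and *Nrarp* from -0.12 to 1.18. *Jag1* ran from -0.21 to 1.98 in OSE culture and from -2.12 to 0.070 in the interaction, and against the clones *Dll4* ran from -0.053 to 3.49 and *Hes1* from -0.39 to 0.34. A group of 2 left with 1 library is assumed to vary like the others. The share of all genes called in such fits is not given, so the counts of those fits are not read as results about the members. Few reads limit *Jag2*, *Dll1* and *Hey1*, and the depth of TBP clone 1 limits the zeros there.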
